A study of Mus musculus with 4 samples.

Results

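The genes described are 28 that make cholesterol or sense, move, store and export it. They were chosen by name, and 19 are enzymes of the route from acetyl-CoA to cholesterol (Ggps1, on a side branch, among them). Another 4 are proteins that sense sterols or act on that signal, and 5 are proteins of sterol transport, storage and efflux. All 28 matched a row each of the deposited table of 31227 genes, and all 28 passed the filter on low counts that left 15838 genes for testing. RNA sequencing had measured colonic epithelial cells from mice aged 8 to 10 weeks whose drinking water held 3.5% dextran sulfate sodium (DSS), which damages the gut lining and sets off colitis. They had DSS for 5 days, then plain water, and were killed on day 7. The groups were Smad4 KO (2 libraries, replicates 1 and 2), from mice lacking Smad4 in the epithelium, and WT (2 libraries, replicates 1 and 3). Smad4 is the partner protein through which TGF-β and BMP signals reach the nucleus. All libraries came from DSS-treated mice, so the comparison is between genotypes under DSS. Neither the driver of the deletion nor the number of mice behind each library is stated in the labels, so the spread that the p-values measure may be technical.

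Cells build cholesterol from acetyl-CoA through mevalonate, farnesyl diphosphate, squalene and lanosterol. The transcription factor SREBP2, made from Srebf2, switches on most of these enzymes when membranes are short of sterol. When sterol is plentiful, Insig proteins hold SREBP2 and its escort Scap in the endoplasmic reticulum, and liver X receptors (LXR), which sense oxidized sterols, switch on exporters such as Abca1. The colonic epithelium renews its cells fast and so has a steady need for membrane sterol.

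The libraries held 61260099 and 67927291 counts in Smad4 KO, against 56018009 and 42577920 counts in WT. Levels are TMM-scaled CPM, which put every library on one common size, and 1 count stood for 0.0150 to 0.0229 CPM. Smad4 itself had 51.5 and 41.1 CPM in Smad4 KO, against 152 and 180 CPM in WT (log2 fold change -1.84 with SE 0.143, edgeR adjusted p = 0.00163), which went with the labels in all 4 libraries. The 10 epithelial markers summed to 18960 and 19608 CPM in Smad4 KO, against 19400.2 and 18541 CPM in WT, led by the keratin Krt8. Within that sum 4 markers rose, 1 fell and 5 did not pass. Krt20, a keratin of mature surface cells, rose 1.65-fold (edgeR adjusted p = 0.00150). The intestinal transcription factor gene Cdx2 rose 1.50-fold (edgeR adjusted p = 0.00558). The 1 that fell was Krt19, another keratin, by 1.17-fold (edgeR adjusted p = 0.0308). Cdx1, the paralogue of Cdx2, did not pass, with 534 and 554 CPM in Smad4 KO, against 616 and 691 CPM in WT. Krt20, Cdx2, Krt19 and Cdx1 were all named after their values were seen. The part of these shifts among epithelial cells in the results for the 28 genes was not tested. Markers of lymphocytes (10.7 and 11.6 CPM summed in Smad4 KO, against 3.56 and 5.92 CPM in WT) and endothelium (led by Cd8a and Vwf) stayed at or under 11.6 CPM in sum. Of the 6 lymphocyte markers tested 2 rose, none fell and 4 did not pass, and all 6 had a log2 fold change above 0. None of the 4 endothelial markers tested passed.

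To show the DNA in front of these genes, the 250 bases before the annotated start were read from the RefSeq promoter table (GRCm38.p6), which matched 23 of the 28 genes. The CCAAT box, the site of the factor NF-Y that works beside SREBP2 at sterol genes, was searched as CCAAT on both strands. It occurred in 20 of the 23 genes (87.0%), against 37.5% of all 27025 genes in the table (33.8% of 32851 promoters). A gene counted if any of its listed starts had a match, so the 87.0% compares with the share of genes, not of promoters. Insig2, Pmvk and Dhcr7, counted here, each also had a start without the box. A strict form of the sterol regulatory element, TCACNCCAC, was searched on both strands too; the letters of neither motif overlapped the other in these windows. That element occurred in 1 of the 23 genes, Hmgcs1, against 1.22% of all genes (1.05% of promoters). A match is a run of letters, not a measured site. Windows of the enzyme genes Hmgcs1 and Mvk and of the sterol sensor Insig1, all of which fell in Smad4 KO, are printed 5′ to 3′ along the plus strand, on which these genes lie, with CCAAT (or ATTGG, the same box on the other strand) and the sterol element in capitals.
Hmgcs1, chr13:119690101-119690350, plus strand: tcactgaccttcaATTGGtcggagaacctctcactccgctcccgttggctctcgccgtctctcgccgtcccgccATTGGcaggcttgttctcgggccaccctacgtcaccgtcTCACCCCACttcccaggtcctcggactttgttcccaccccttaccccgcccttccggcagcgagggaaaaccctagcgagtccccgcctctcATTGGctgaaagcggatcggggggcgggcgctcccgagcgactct
Mvk, chr5:114444019-114444268, plus strand: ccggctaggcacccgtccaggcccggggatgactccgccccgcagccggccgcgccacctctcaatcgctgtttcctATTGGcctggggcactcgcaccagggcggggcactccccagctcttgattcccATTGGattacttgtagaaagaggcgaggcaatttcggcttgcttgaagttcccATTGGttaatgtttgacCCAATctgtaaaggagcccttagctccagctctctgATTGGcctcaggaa
Insig1, chr5:28071162-28071411, plus strand: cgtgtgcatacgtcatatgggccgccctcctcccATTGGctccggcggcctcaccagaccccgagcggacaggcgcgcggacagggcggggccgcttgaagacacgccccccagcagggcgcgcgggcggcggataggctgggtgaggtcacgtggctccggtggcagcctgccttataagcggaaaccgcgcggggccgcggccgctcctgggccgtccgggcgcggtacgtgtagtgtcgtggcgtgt
The Hmgcs1 window held 3 CCAAT boxes and the sterol element, which began 137 bases before the start; the Mvk window held 5 CCAAT boxes and the Insig1 window 1. All 9 matched genes that fell had a CCAAT box, as did 11 of the 13 that did not pass. Abca1, which rose, had none in this window.

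The enzymes of cholesterol synthesis that changed in Smad4 KO all fell, by modest amounts. Of the 28 genes, 11 fell, 1 rose and 16 did not pass (edgeR quasi-likelihood test, adjusted over all tested genes by Benjamini and Hochberg, threshold 0.05). The fallen share was 39.3%, where 6.4% of all tested genes fell. The risen share was 3.57%, where 8.83% of all rose. The 28 genes were chosen with earlier results of these data known, so these shares describe them and are no independent test. Among the 10012 tested genes with a mean level inside the range of these 28 (6.13 to 426 CPM), 7.94% fell and 9.58% rose. The median log2 fold change was -0.30 over the 28 and 0.01 over all tested genes, and the falls that passed ran between 1.18-fold and 1.74-fold. In 17 of the 28 genes both Smad4 KO libraries lay below both WT libraries, in 6 they lay above, and in 5 the genotypes overlapped. Of all tested genes, 59.4% did not overlap, 28.4% with both Smad4 KO libraries below and 31.0% with both above. In 3 simulated runs of this design (at least 15379 genes tested), 200 genes drawn from all levels were changed, fewer than the 2412 called in the data. The test recovered 11.4% of genes changed 1.5-fold and 50.7% of genes changed 2-fold, and 14.2% of its calls were false. With that setting the rates may differ from those for the 28 genes. A gene that did not pass is not shown to be equal. The calls also rest on both Smad4 KO libraries: 4 genes of the 28 were called without Smad4 KO replicate 1 and 5 without Smad4 KO replicate 2.

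**Figure D1:**
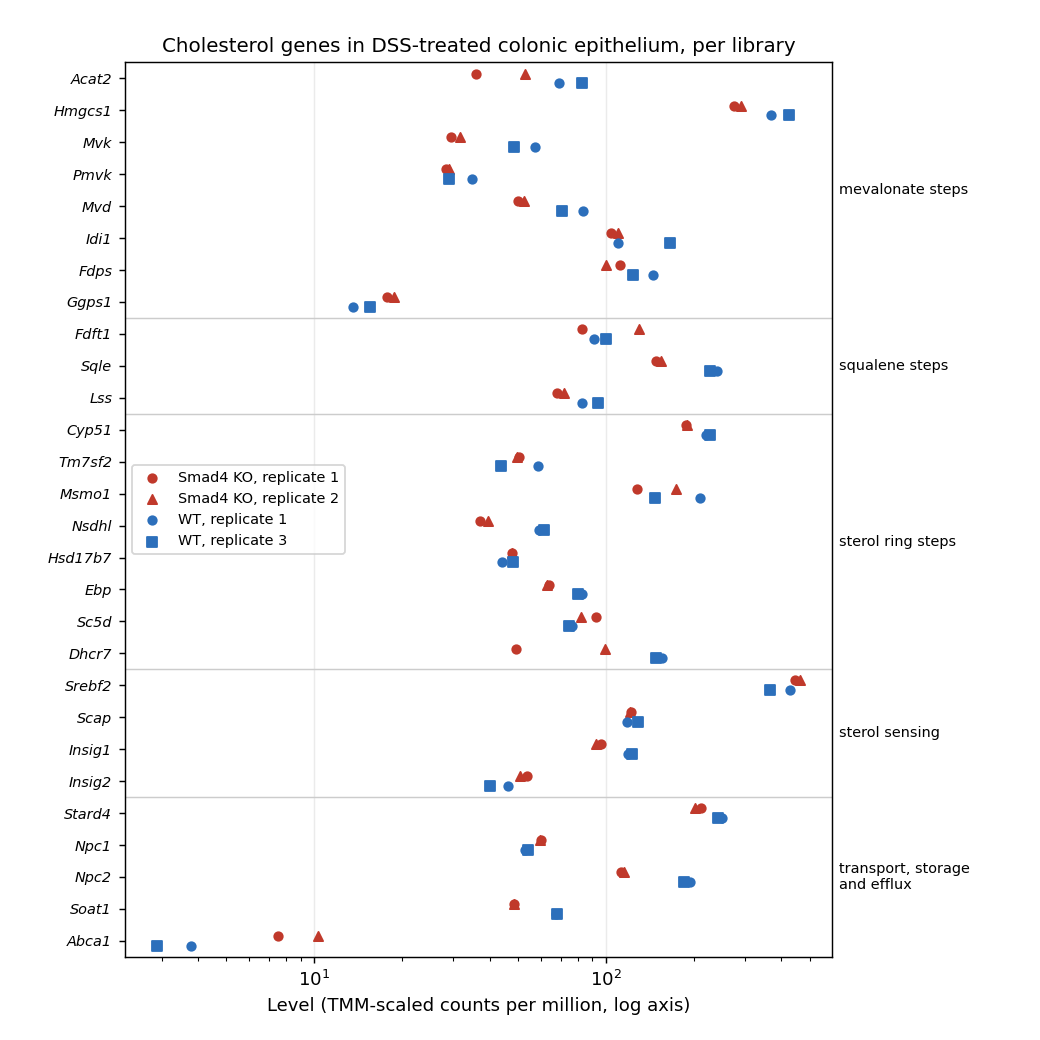
Level of each of the 28 genes in each library, in TMM-scaled CPM on a log axis, with genes in pathway order and Smad4 KO (red) drawn above WT (blue). The Smad4 KO points lie left of the WT points for 17 genes, and right of them for 6, Abca1 among them.

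The first steps join acetyl-CoA units and turn them into the 5-carbon and 15-carbon isoprenoid building blocks. Of these 8 enzymes, 3 fell, none rose and 5 did not pass, and their summed level was 670 ± 22.3 CPM in Smad4 KO and 923 ± 55.8 CPM in WT (SD, n = 2 each). Hmgcs1, the synthase that makes HMG-CoA for mevalonate, had 276 and 291 CPM in Smad4 KO, against 369.9 and 425 CPM in WT. It fell 1.40-fold (a log2 fold change -0.49 with SE 0.0838, edgeR adjusted p = 0.0188), and its genotypes did not overlap. Mevalonate kinase, Mvk, had 29.4 and 31.6 CPM in Smad4 KO, against 57.3 and 48.6 CPM in WT, and fell 1.74-fold (a log2 fold change -0.80 with SE 0.114, edgeR adjusted p = 0.0108). Mvd, the decarboxylase that makes isopentenyl diphosphate, had 50.1 and 52.4 CPM in Smad4 KO, against 83.6 and 70.9 CPM in WT. Its fall was 1.51-fold (log2 fold change -0.59 with SE 0.102, edgeR adjusted p = 0.0195). Calls for Hmgcs1, Mvk and Mvd were lost without either Smad4 KO library (for Mvd, edgeR adjusted p up to 0.133).

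The other 5 early enzymes did not pass. Acat2, the thiolase that joins the first acetyl-CoA pair, had 35.8 and 53.0 CPM in Smad4 KO, against 69.2 and 83.2 CPM in WT (log2 fold change -0.78 with SE 0.204, edgeR adjusted p = 0.0640). Its log2 fold change was close to that of Mvk, but its Smad4 KO libraries lay further apart. Acat2 passed with no filter on low counts (edgeR adjusted p = 0.0294), by DESeq2 (adjusted p = 0.00135) and by limma-voom (adjusted p = 0.0474). Its log2 fold change was -1.09 without Smad4 KO replicate 2, where it was called (edgeR adjusted p = 0.0305), and -0.52 without Smad4 KO replicate 1. A similar neighbouring gene, Acat3, had 4.59 and 0.420 CPM in Smad4 KO, against 4.48 and 0.711 CPM in WT, and the counting could have split reads between them. Idi1, which isomerizes isopentenyl diphosphate, had 104 and 109.9 CPM in Smad4 KO, against 110.2 and 166 CPM in WT, and its log2 fold change of -0.37 (SE 0.192, edgeR adjusted p = 0.277) was -0.04 without WT replicate 3 and -0.64 without WT replicate 1, where it was called (edgeR adjusted p = 0.00944). Farnesyl diphosphate synthase, Fdps, had a log2 fold change of -0.34 (SE 0.104, edgeR adjusted p = 0.0928), and phosphomevalonate kinase, Pmvk, one of -0.16 (SE 0.123, edgeR adjusted p = 0.469). In both, all Smad4 KO libraries were below all WT libraries, but for Pmvk only just. Pmvk had 28.40 and 28.88 CPM in Smad4 KO, against 34.89 and 28.90 CPM in WT. Its log2 fold change was -0.026 without WT replicate 1. Fdps passed by DESeq2 (adjusted p = 0.0196) and without WT replicate 3 (edgeR adjusted p = 0.0482). Ggps1, which leads away from sterols to geranylgeranyl diphosphate for protein prenylation, differed in sign, with 17.7 and 18.7 CPM in Smad4 KO, against 13.6 and 15.6 CPM in WT (log2 fold change 0.32 with SE 0.122, edgeR adjusted p = 0.153).

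Farnesyl diphosphate is then committed to sterols by conversion to squalene. Sqle, the epoxidase that oxidizes squalene and a slow step of the pathway, had 148 and 154 CPM in Smad4 KO, against 239.7 and 228 CPM in WT. It fell 1.55-fold (a log2 fold change -0.63 with SE 0.0633, edgeR adjusted p = 0.00358), and it passed whichever of the 4 libraries was left out. Lss, the cyclase that makes lanosterol, had 68.0 and 71.8 CPM in Smad4 KO, against 83.0 and 94.3 CPM in WT (log2 fold change -0.34 with SE 0.0892, edgeR adjusted p = 0.0629). Lss passed with library totals (edgeR adjusted p = 0.0475), by DESeq2 (adjusted p = 0.0139) and without WT replicate 1 (edgeR adjusted p = 0.0296). Fdft1, squalene synthase, had 82.6 and 130.3 CPM in Smad4 KO, against 91.0 and 100.2 CPM in WT. Its Smad4 KO libraries enclosed both WT libraries (log2 fold change 0.16 with SE 0.215, edgeR adjusted p = 0.696), and its log2 fold change was -0.21 without Smad4 KO replicate 2. Fdft1 shares 774 exon bases with Ctsb on the opposite strand, which had 542 and 520.2 CPM in Smad4 KO, against 512 and 473 CPM in WT. Reads from that stretch cannot be told apart, because strand is not given.

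A further 8 enzymes trim and rearrange lanosterol into cholesterol, and 3 of them fell. Nsdhl, a sterol dehydrogenase that helps to remove the methyl groups, had 37.2 and 39.5 CPM in Smad4 KO, against 58.9 and 61.6 CPM in WT. It fell 1.57-fold (a log2 fold change -0.65 with SE 0.0828, edgeR adjusted p = 0.00736), a call lost without Smad4 KO replicate 1 (edgeR adjusted p = 0.0780). Ebp, the isomerase that moves the ring double bond, had 63.9 and 62.9 CPM in Smad4 KO, against 83.0 and 80.2 CPM in WT (log2 fold change -0.36 with SE 0.0679, edgeR adjusted p = 0.0244). Without either Smad4 KO library the Ebp call was lost (edgeR adjusted p up to 0.183). Cyp51, the demethylase that acts on lanosterol, had 189 and 191 CPM in Smad4 KO, against 221 and 227 CPM in WT. The Cyp51 fall of 1.18-fold passed narrowly (log2 fold change -0.24 with SE 0.0574, edgeR adjusted p = 0.0485), and it was lost with no filter on low counts, without WT replicate 3 and without either Smad4 KO library (edgeR adjusted p up to 0.274). Cyp51 shares 166 exon bases with Akap9 on the opposite strand, and Akap9 fell too (log2 fold change -0.36, edgeR adjusted p = 0.0165).

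The largest difference in log2 fold change among the 19 enzymes belonged to one that did not pass. Dhcr7, the reductase of the last step, had 49.4 and 99.1 CPM in Smad4 KO, against 156 and 149 CPM in WT. Its log2 fold change was -1.04 (SE 0.315, edgeR adjusted p = 0.0919), since its Smad4 KO libraries differed 2-fold from each other while its WT libraries were close. Dhcr7 was called with no filter on low counts and with either Smad4 KO library alone, with a log2 fold change of -0.62 without Smad4 KO replicate 1 and -1.63 without Smad4 KO replicate 2. Msmo1, the methyl sterol oxidase, had 128 and 174 CPM in Smad4 KO, against 209.9 and 148 CPM in WT, and the genotypes overlapped (edgeR adjusted p = 0.514). Tm7sf2 and Hsd17b7, a sterol reductase and a ketosteroid reductase, had log2 fold changes of -0.03 and 0.05 (edgeR adjusted p = 0.922 and 0.773). Sc5d, which adds a ring double bond, had 92.7 and 82.4 CPM in Smad4 KO, against 76.5 and 75.0 CPM in WT (log2 fold change 0.21 with SE 0.0836, edgeR adjusted p = 0.172). Over the 19 enzymes together, Ggps1 included, 7 fell, none rose and 12 did not pass, and 15 had a log2 fold change below 0. Their summed level was 1699 ± 125 CPM in Smad4 KO and 2212 ± 8.61 CPM in WT (SD, n = 2 each).

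**Figure D2:**
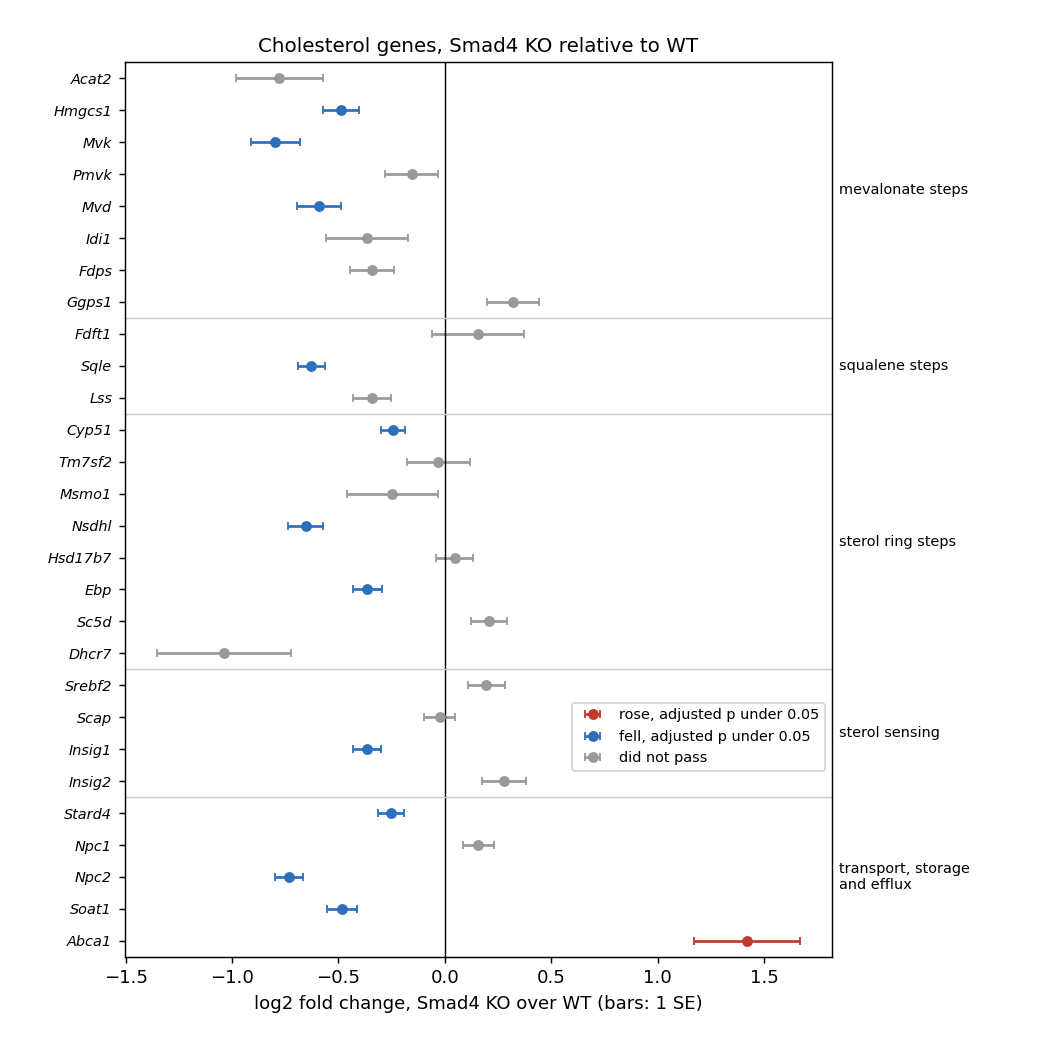
The log2 fold change of each of the 28 genes, Smad4 KO over WT, with bars of 1 SE; red rose, blue fell, grey did not pass. The enzymes lie mostly left of 0, Dhcr7 has the widest bar, and Abca1 alone lies above 1.

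The genes of sterol sensing and of the response to it did not move as a block. Srebf2, which encodes SREBP2, had 446 and 463 CPM in Smad4 KO, against 428 and 365 CPM in WT, and did not pass (log2 fold change 0.20 with SE 0.0873, edgeR adjusted p = 0.211). Its log2 fold change was 0.30 without WT replicate 1, where it was called (edgeR adjusted p = 0.0274), and 0.088 without WT replicate 3. Scap, the escort that carries SREBP2 to the Golgi, had 122 and 121 CPM in Smad4 KO, against 118 and 129 CPM in WT (log2 fold change -0.02 with SE 0.0716, edgeR adjusted p = 0.868). Both Smad4 KO libraries lay above WT for Srebf2, while the genotypes overlapped for Scap. Insig1, a retention protein whose own gene is an SREBP2 target, had 96.0 and 92.2 CPM in Smad4 KO, against 119 and 123 CPM in WT. It fell 1.29-fold (a log2 fold change -0.37 with SE 0.0665, edgeR adjusted p = 0.0224), and did not pass once either Smad4 KO library was dropped (edgeR adjusted p up to 0.183). Its paralogue Insig2, with the same retention role, had 53.5 and 50.9 CPM in Smad4 KO, against 46.0 and 40.0 CPM in WT (log2 fold change 0.28 with SE 0.101, edgeR adjusted p = 0.139). The Smad4 KO libraries thus lay below WT for Insig1 and above WT for Insig2; the difference between the paralogues was not tested.

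Of the 5 genes of transport, storage and efflux, 3 fell and 1 rose. Npc2, the soluble protein that lifts cholesterol out of the lysosome lumen, had 113 and 115 CPM in Smad4 KO, against 194 and 185 CPM in WT. It fell 1.66-fold (a log2 fold change -0.73 with SE 0.0641, edgeR adjusted p = 0.00232), the smallest adjusted p of the 28, and it passed whichever library was left out. Npc1, the lysosomal membrane protein that takes cholesterol from Npc2, had 60.0 and 59.3 CPM in Smad4 KO, against 52.8 and 54.2 CPM in WT, and did not pass (log2 fold change 0.16 with SE 0.0728, edgeR adjusted p = 0.227). Soat1, which esterifies cholesterol for storage, had 48.4 CPM in both Smad4 KO libraries, against 67.3 and 68.0 CPM in WT. Its fall was 1.40-fold (log2 fold change -0.48 with SE 0.0715, edgeR adjusted p = 0.0118), lost without either Smad4 KO library (edgeR adjusted p up to 0.117). Stard4, a carrier that moves cholesterol between membranes and is itself an SREBP2 target, had 211 and 202 CPM in Smad4 KO, against 250.04 and 243 CPM in WT. It passed narrowly as 1.19-fold lower (log2 fold change -0.25 with SE 0.0603, edgeR adjusted p = 0.0493) and was lost without any of the 4 libraries in turn (edgeR adjusted p up to 0.315). Npc1 shares 511 exon bases with Rmc1, as do Tm7sf2 532 with Vps51 and Ggps1 257 with Arid4b, and reads from these stretches could be counted to either gene.

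Abca1, the pump that loads cellular cholesterol onto lipoprotein particles, was the 1 gene that rose. It had 7.52 and 10.3 CPM in Smad4 KO, against 3.77 and 2.89 CPM in WT, the lowest levels of the 28 genes. It rose 2.67-fold (log2 fold change 1.42 with SE 0.249, edgeR adjusted p = 0.0203), and its call was lost without Smad4 KO replicate 2 (edgeR adjusted p = 0.109) and without WT replicate 3. Macrophages make much Abca1, and some of their markers were higher in the same libraries. Of 10 macrophage markers 2 rose, none fell and 8 did not pass. In 8 both Smad4 KO libraries lay above both WT libraries, and in 2, Cd14 and Mrc1, they lay below. The 2 that rose, Lyz2 and Csf1r, were named after their values were seen. Lyz2 had 18.8 and 18.9 CPM in Smad4 KO, against 5.57 and 3.76 CPM in WT. Csf1r had 9.13 and 7.15 CPM in Smad4 KO, against 3.19 and 3.26 CPM in WT. Cd14 had 136 and 134 CPM in Smad4 KO, against 159 and 181 CPM in WT. Mrc1 had 2.69 and 2.68 CPM in Smad4 KO, against 5.03 and 3.62 CPM in WT. The 10 markers summed to 177 and 172 CPM in Smad4 KO, against 177 and 195 CPM in WT, most of it Cd14. That sum thus follows Cd14 and does not show the 8 markers that lay above WT. The only macrophage marker at 0 was Fcgr1, in WT replicate 3. Of 8 neutrophil markers 6 rose, with a sum of 445 and 434 CPM in Smad4 KO, against 130 and 104 CPM in WT. Most of that sum was Ly6g alone, with 330 and 319 CPM in Smad4 KO, against 116 and 93.3 CPM in WT. The cells that gave the Ly6g reads were not tested, so this sum need not measure neutrophils. S100a8 had 44.1 and 43.4 CPM in Smad4 KO, against 3.72 and 1.72 CPM in WT (edgeR adjusted p = 0.00246). S100a9 had 43.3 and 42.6 CPM in Smad4 KO, against 4.44 and 3.37 CPM in WT (edgeR adjusted p = 0.000434). None of the 8 neutrophil markers fell. Retnlg and Mmp8 were at 0 in WT replicate 3. Of 8 fibroblast markers 7 were tested: 2 rose, none fell and 5 did not pass. Their sum was 53.2 and 58.6 CPM in Smad4 KO, against 26.8 and 27.8 CPM in WT. Fbln1 led that sum, with 28.1 and 34.7 CPM in Smad4 KO, against 9.73 and 10.3 CPM in WT. In 5 of the 7 tested, both Smad4 KO libraries lay above both WT libraries. In 2, Col1a1 and Col3a1, the genotypes overlapped (edgeR adjusted p = 0.763 and 0.983). Lum was at 0 in 3 libraries. The part of these cells in the Abca1 result was not tested, and in bulk RNA fewer cells of a type and less RNA per cell cannot be told apart.

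Of the 8 proliferation markers 1 fell, Mki67, with 279 and 275 CPM in Smad4 KO, against 339 and 353 CPM in WT, and 7 did not pass. Their sum was 980 and 920.2 CPM in Smad4 KO, against 1048 and 1037 CPM in WT. The part of cell division in the enzyme levels was not tested.

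**Figure D3:**
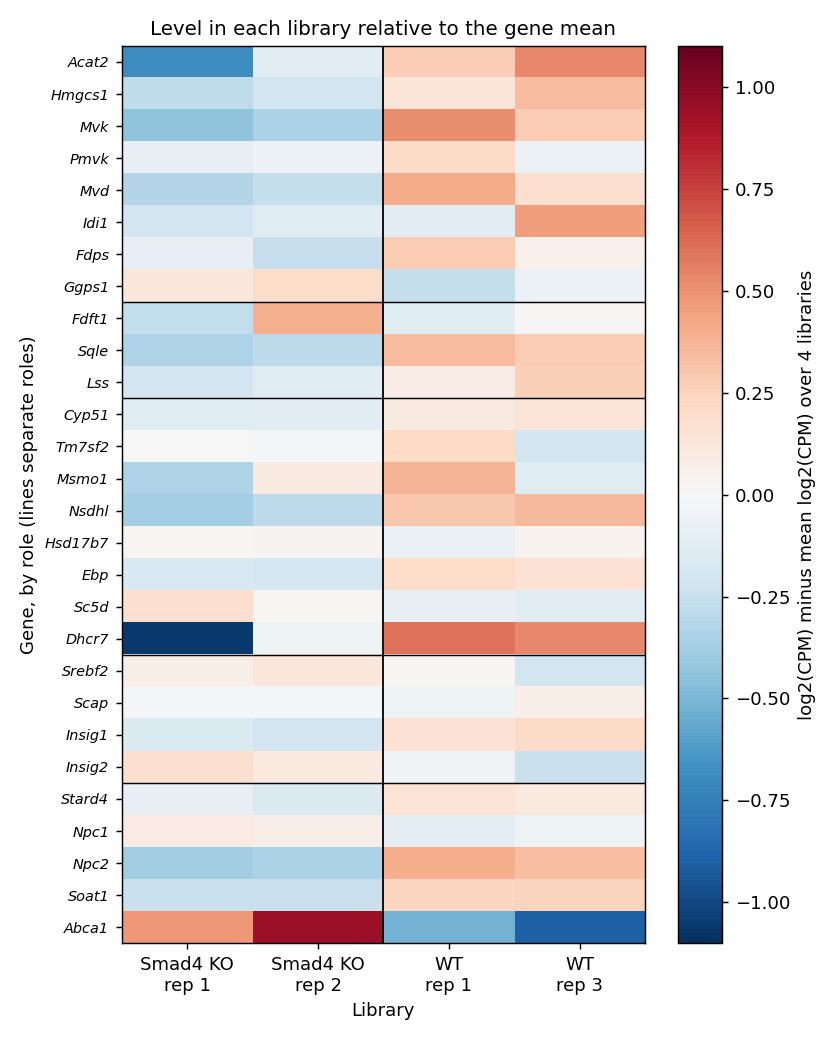
For each of the 28 genes (rows, by role) and each library (columns, Smad4 KO left of WT), the log2 CPM minus the gene's mean over the 4 libraries. Most enzyme rows are blue in both Smad4 KO columns; Dhcr7, Acat2, Fdft1 and Msmo1 differ between the Smad4 KO columns, and Abca1 runs the other way.

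How far the 28 genes varied within a genotype differed from gene to gene. The median size of the log2 ratio between the 2 libraries of a genotype was 0.07 in Smad4 KO and 0.16 in WT. Over all tested genes it was 0.13 in Smad4 KO and 0.18 in WT. Those genes were not matched to the 28 in level, so the medians are not a like comparison. The size of the ratio passed 0.4 in 5 genes of Smad4 KO: Dhcr7, Fdft1, Acat2, Abca1 and Msmo1. All 5 were lower in Smad4 KO replicate 1 than in replicate 2. In WT it passed 0.4 in 3 genes, namely Idi1, Msmo1 and Tm7sf2. Across the 28, Smad4 KO replicate 1 was the lower of its pair in 19 genes, and WT replicate 1 in 13.

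Per kilobase of exon, the levels of the 28 genes spanned a wide range. Srebf2 was the highest in Smad4 KO (63.2 CPM per kb, against 55.2 CPM per kb in WT), and Hmgcs1 was next (61.7 CPM per kb in Smad4 KO, against 86.5 CPM per kb in WT). The 2 genes thus stood in the reverse order in WT. Cyp51 and Stard4 came next in both genotypes, with 42.9 and 37.0 CPM per kb in Smad4 KO, against 50.8 and 44.1 CPM per kb in WT. At the low end stood Ggps1 (3.86 CPM per kb in Smad4 KO, against 3.09 CPM per kb in WT) and Abca1 (0.862 CPM per kb in Smad4 KO, against 0.32 CPM per kb in WT).

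Genes that neighbour this set in the pathway were followed through 5 lists of 64 genes, of which 58 were tested. Among these 58, 6 rose, 8 fell and 44 did not pass, with a median log2 fold change of -0.03; 15.2% of all tested genes passed. Of 13 genes that process or degrade the SREBP machinery, 2 fell and 11 did not pass. Rnf145, a ubiquitin ligase, had 122 and 118 CPM in Smad4 KO, against 154 and 152 CPM in WT (log2 fold change -0.35 with SE 0.0620, edgeR adjusted p = 0.0213). Erlin1, an endoplasmic reticulum protein of sterol-regulated degradation, had 69.3 and 62.0 CPM in Smad4 KO, against 84.6 and 85.5 CPM in WT (log2 fold change -0.37, edgeR adjusted p = 0.0393). Both calls were lost without either Smad4 KO library, and that of Erlin1 also without either WT library. Srebf1, whose protein SREBP1 serves fatty acid genes, had 101 and 111 CPM in Smad4 KO, against 128 and 149.6 CPM in WT, and did not pass (log2 fold change -0.38 with SE 0.102, edgeR adjusted p = 0.0673), though it did with no filter on low counts, by DESeq2 and without WT replicate 1 (adjusted p = 0.00939 to 0.0446).

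LXR and its targets moved in both directions: of 9 genes, 1 rose, 3 fell and 5 did not pass. Nr1h3, which encodes LXRα, had 10.4 and 9.52 CPM in Smad4 KO, against 19.1 and 17.3 CPM in WT, and fell 1.82-fold (a log2 fold change -0.86 with SE 0.127, edgeR adjusted p = 0.0115). Nr1h2, which encodes LXRβ, had 79.9 and 73.5 CPM in Smad4 KO, against 76.4 and 88.6 CPM in WT, and the genotypes overlapped (edgeR adjusted p = 0.551). The exporter Abcg1, like Abca1, was higher, with 8.00 and 9.59 CPM in Smad4 KO, against 4.06 and 4.34 CPM in WT (log2 fold change 1.07 with SE 0.181, edgeR adjusted p = 0.0182). Abcg5, which pairs with Abcg8 to export sterols at the apical membrane, was lower, with 5.96 and 6.12 CPM in Smad4 KO, against 13.4 and 18.1 CPM in WT (log2 fold change -1.38 with SE 0.186, edgeR adjusted p = 0.00875). Its partner Abcg8, named after its values were seen, had 2.03 and 4.03 CPM in Smad4 KO, against 8.04 and 7.34 CPM in WT, and did not pass (log2 fold change -1.34 with SE 0.350, edgeR adjusted p = 0.0634). Abcg5 and Abcg8 lie on opposite strands and share 82 exon bases. Mylip, a ubiquitin ligase that LXR induces, had 9.07 and 9.20 CPM in Smad4 KO, against 15.8 and 14.0 CPM in WT (log2 fold change -0.70, edgeR adjusted p = 0.0235). The calls for Nr1h3, Abcg1, Abcg5 and Mylip were lost without either Smad4 KO library, and that of Mylip also without WT replicate 1 (edgeR adjusted p up to 0.135).

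Sterol carriers and the isoprenoid branch held 5 of the 6 rises among these lists. Of 18 genes of sterol carriage, uptake and ester handling, 3 rose, 2 fell and 13 did not pass. Vldlr, a lipoprotein receptor, had 32.7 and 31.3 CPM in Smad4 KO, against 15.2 and 15.6 CPM in WT, and rose 2.08-fold (log2 fold change 1.06 with SE 0.0994, edgeR adjusted p = 0.00286). Stard5, a sterol-binding protein of the same family as Stard4, had 69.1 and 67.3 CPM in Smad4 KO, against 51.9 and 50.3 CPM in WT (log2 fold change 0.42, edgeR adjusted p = 0.0203). The sterol-binding protein gene Osbpl2 had 75.7 and 82.1 CPM in Smad4 KO, against 120.6 and 108.9 CPM in WT (log2 fold change -0.54, edgeR adjusted p = 0.0148), and Lima1, an actin-binding protein, fell 1.26-fold (log2 fold change -0.33, edgeR adjusted p = 0.0142). Of 13 isoprenoid genes 2 rose and none fell. Nus1, a subunit of the enzyme that makes dolichol, had 298 and 293 CPM in Smad4 KO, against 167 and 188 CPM in WT (log2 fold change 0.74 with SE 0.0762, edgeR adjusted p = 0.00392), and Pdss1, which makes the side chain of coenzyme Q, rose 1.52-fold (log2 fold change 0.61, edgeR adjusted p = 0.0389). Of 5 tested genes of other sterol enzymes and oxysterols 1 fell, Cyp39a1, an oxysterol hydroxylase, with 9.95 and 10.9 CPM in Smad4 KO, against 19.8 and 21.1 CPM in WT (log2 fold change -0.97, edgeR adjusted p = 0.00634). Vldlr and Nus1 passed whichever library was left out; the calls for Stard5, Osbpl2, Lima1 and Pdss1 were lost without either Smad4 KO library, that for Pdss1 also with library totals and without WT replicate 1, and that for Cyp39a1 without Smad4 KO replicate 1. Stard5 shares 1202 exon bases with Il16 and Pdss1 194 with Abi1, both on the opposite strand.

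**Figure D4:**
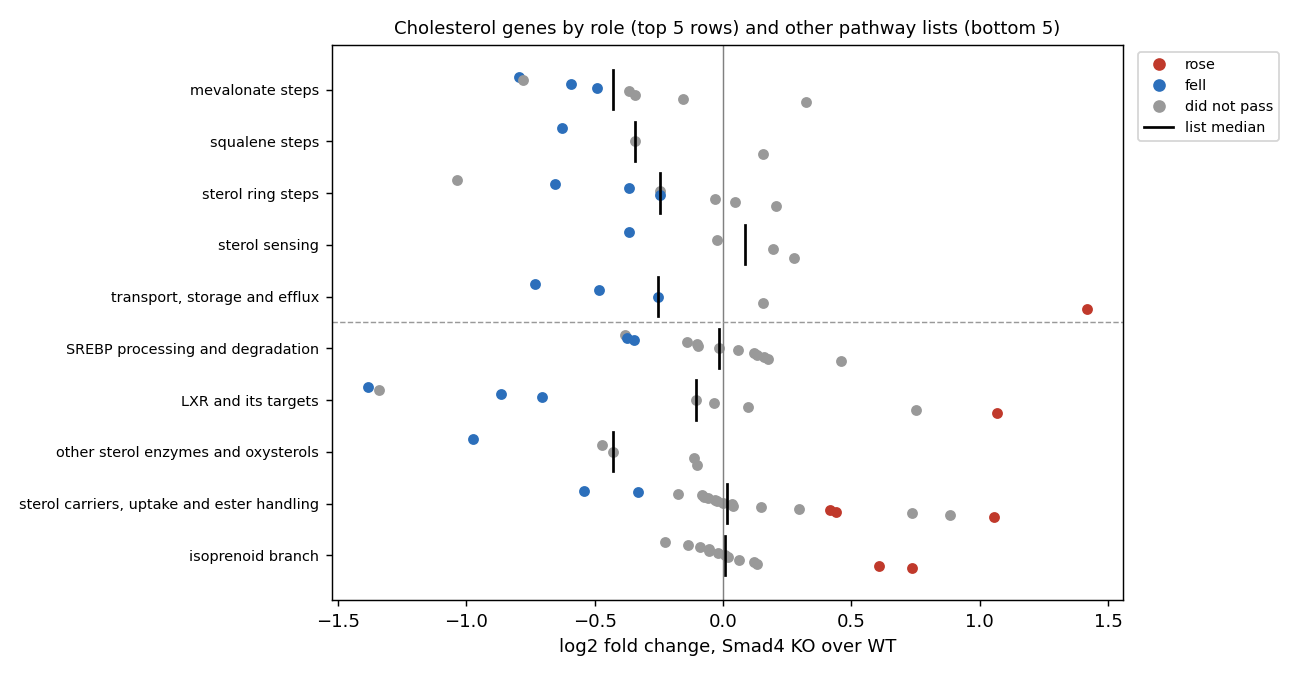
The log2 fold change, Smad4 KO over WT, of each of the 28 genes by role (above the dashed line) and of the 58 other tested pathway genes by list (below it); red rose, blue fell, grey did not pass, black bars are list medians. The medians of the 3 enzyme groups lie between -0.43 and -0.24, and those of the other lists, from top to bottom, at -0.02, -0.10, -0.43, 0.02 and 0.01.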

How the data were processed

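The authors deposited whole-number counts per Ensembl gene for 4 libraries, not normalized, and all columns matched a library title (0 left over). Per the labels' protocols, 1.5 µg of total RNA and random hexamers went into each library. HISAT2 2.1.0, StringTie 1.3.3b and SAMtools 1.9 were used on GRCm38, per the submitters' processing notes. The sources used here do not give the counting step, annotation or strand setting. Symbols, exon lengths and overlaps were taken from the GENCODE M21 annotation of GRCm38 and named 31207 of 31227 genes. Of 19618 genes with a count, edgeR's filterByExpr kept 15838. TMM-normalized counts were tested by edgeR 4.0.16 (R 4.3.3) quasi-likelihood with genotype as the only term; SE is the log2 fold change over the square root of F. The biological coefficient of variation was 0.196. On simulated data with 200 changed genes, 14.2% of calls were false. Alternatives were 3 other scalings, 2 other filters, leaving out the 20 most abundant genes, DESeq2 1.42.0, limma-voom (limma 3.58.1) and leaving out each library; for Smad4 and the other pathway genes named, these were added after the data were seen. The members and lists were chosen with earlier results of these data known. Named were all 28 members, Srebf1, Nr1h2, Nr1h3, up to 4 called genes per other list by p, and the highest marker per list discussed. Beyond this rule, Abcg8, Krt20, Cdx2, Krt19, Cdx1, Lyz2, Csf1r, Mrc1, S100a8, S100a9, Col1a1, Col3a1 and the markers at 0 were named after their values were seen. Same-genotype libraries differed beyond sampling noise (mean chi-square per gene 31.0 in Smad4 KO and 37.6 in WT, where noise gives about 1).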

Additional observations from a re-analysis of the deposited data

How the results depend on the processing

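No paired analysis was possible because the genotypes share only replicate number 1. Leaving out each library in turn gave 975 to 2573 changed genes in all against 2412, 4 to 14 of the 28 against 12, and 2 to 14 other pathway genes against 14; the low counts came from the fits without a Smad4 KO library, in which the lone library is assumed to vary like the WT pair. Of 224 values of the 28 genes under the 8 alternatives that kept all libraries, 215 kept direction and side of the threshold, 7 newly passed, 1 was lost (Cyp51 with no filter) and 1 reversed, Hsd17b7, at -0.0057 with library totals. Without 1 library, the log2 fold changes that changed sign ran from -0.21 to 0.45 for Fdft1, -0.22 to 0.18 for Tm7sf2, -0.48 to 0.017 for Msmo1, -0.026 to 0.11 for Hsd17b7, -0.097 to 0.040 for Scap and, for Nr1h2, reached 0.0079. None of these passed in the main test. At most 0.0229 CPM stood for 1 count, and the lowest of the 28, Abca1, had a mean of 3.33 CPM in WT.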
